A study of Mus musculus with 7 samples.

Results

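The goblet cell and mucus genes examined here are a list of 35 mouse genes, chosen by name, that encode the gel-forming mucin of the intestine, the proteins that are secreted with it, membrane mucins, and the folding, glycosylation and release machinery that goblet cells (GCs) are known for. All 35 symbols were found among the 55414 Ensembl identifiers of the count table, and 33 members passed the filter on low counts. Bulk RNA-seq had been performed on Paneth cells (PCs), which store antimicrobial proteins in large granules in the crypts of the small intestine and were purified with a cell sorter from C57BL/6J mice 15 h after an injection of phosphate-buffered saline (PBS) or of tumour necrosis factor (TNF), a pro-inflammatory cytokine. There were 3 PBS and 4 TNF libraries, each from a different mouse per the series description, with 15511455 to 19193721 counts. Dose, age, sex, sort markers and the part of the intestine taken are not stated in the labels or notes at hand.

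GCs fill their granules with MUC2, a very large glycoprotein that is assembled in the endoplasmic reticulum (ER), is coated with O-linked sugars in the Golgi and unfolds into a gel after release. Other secreted proteins bind, trim or accompany this gel, while membrane mucins stay anchored in the apical surface of epithelial cells. PCs and GCs arise from a shared secretory progenitor, and PCs carry part of the same secretory machinery. In these libraries, the PC genes Lyz1 and Defa24, which encode lysozyme and an alpha-defensin, were at 85149 to 155547 and 42878 to 91031 CPM (counts of a gene per 1000000 counts, on library sizes scaled with the TMM factors of edgeR). The summed level of 8 PC markers overlapped between groups. This sum rests mostly on its highest genes and says little about Clps and Habp2, which were lower after TNF, or Nupr1 and Mmp7, which were higher. A bulk library cannot tell fewer cells of a type from less RNA per cell, so every level below is an average over all sorted cells.

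After TNF, 21 of the 33 tested members were lower and 3 were higher, at a Benjamini-Hochberg adjusted p under 0.05 in the quasi-likelihood test of edgeR. Of all 14329 genes tested, 30.1% were lower and 29.5% higher, and every count of called genes in a list or group below is to be read against these shares. The members that fell were led by Fcgbp, Capn9, Bcas1, Zg16, Rep15 and Lrrc26, all by more than 8-fold, whereas the membrane mucins Muc1 and Muc4 and the O-glycan enzyme gene C1galt1 rose. Muc2 itself showed no detectable change. The median log2 fold change of the members was -1.39, beside 0.00 over all tested genes. Among the members, 18 fell and 3 rose by at least 2-fold, where 17.2% and 14.4% of all tested genes did so, and 6 fell by at least 8-fold, where 2.78% of all tested genes did. The CPM values of all TNF libraries lay below those of all PBS libraries for 21 members (30.9% of all tested genes) and above them for 4 members (29.9%), and the groups overlapped for 8.

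**Figure D1:**
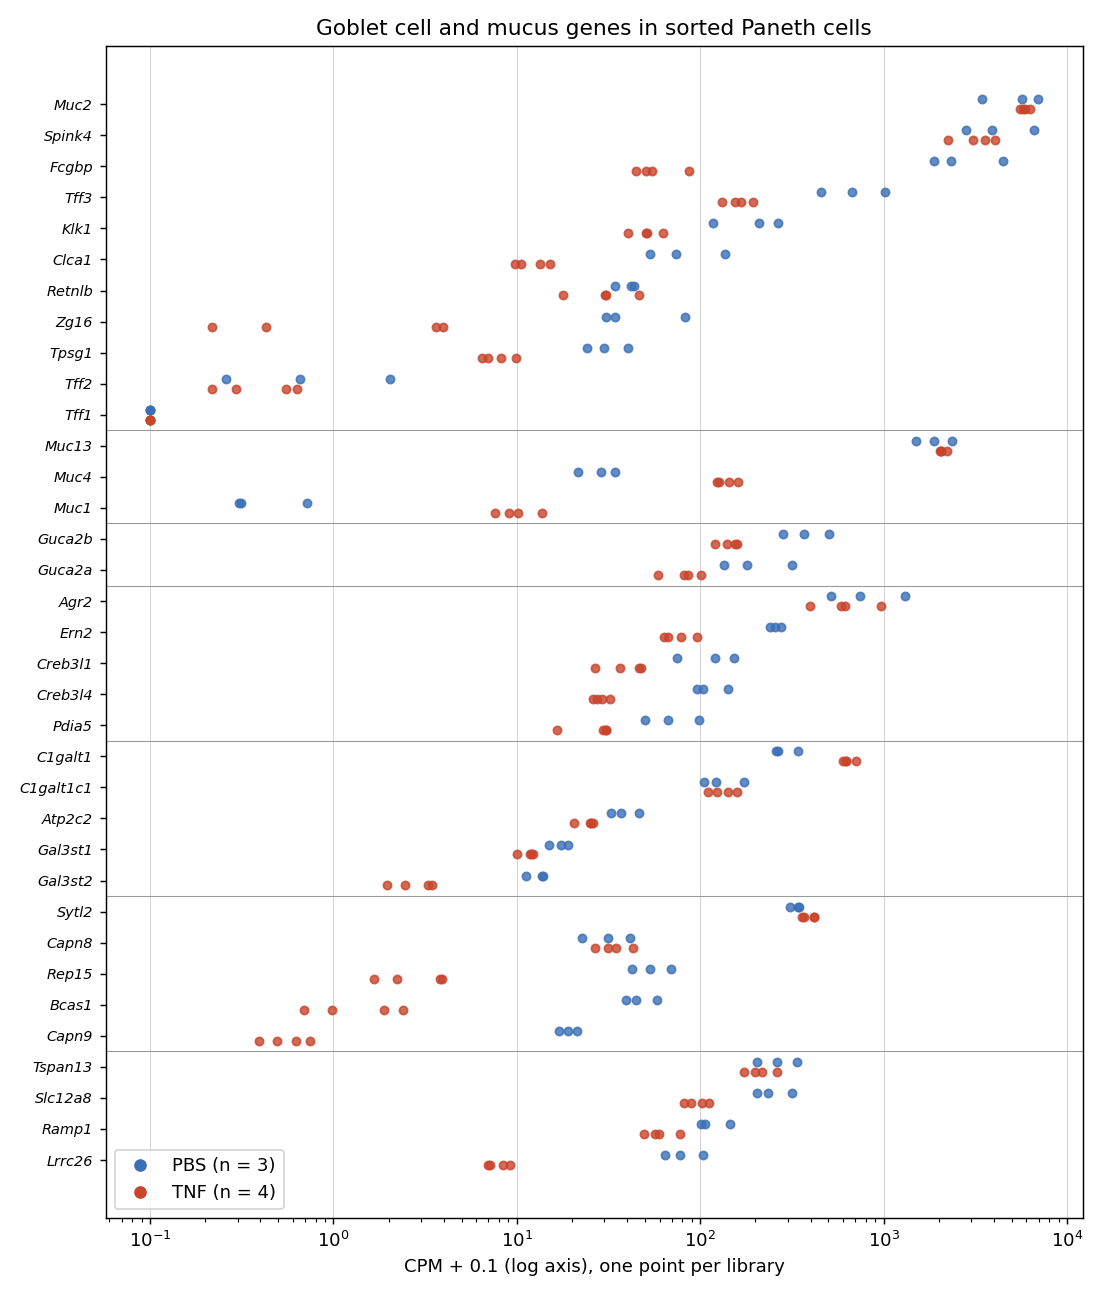
CPM of the 35 goblet cell and mucus genes in each library, on a log axis after adding 0.1 CPM, with 3 PBS libraries in blue, 4 TNF libraries in red and lines between groups of genes by role. The TNF points of Fcgbp, Zg16, Rep15, Bcas1, Capn9 and Lrrc26 lie more than 10-fold to the left of the PBS points on average, those of Muc1 and Muc4 lie to the right, and the points of Muc2, Spink4, Agr2 and Muc13 overlap.

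Windows around the annotated start sites (250 bases before to 50 bases after, RefSeq, GRCm38.p6) are shown for 4 genes, selected after their values were seen, whose levels parted after TNF. They are Muc2 (chr7:141690090-141690389, + strand), which did not detectably change, Fcgbp (chr7:28070986-28071285, + strand), which had the largest fitted fall of the members, and Muc1 (chr3:89228806-89229105, + strand) and Muc4 (chr16:32735636-32735935, + strand), which rose. Capn9 fell nearly as much as Fcgbp, with log2 fold changes of -5.33 ± 0.26 and -5.62 ± 0.36 (SE). Without PBS replicate 1 their order turned, at -5.24 for Capn9 and -5.16 for Fcgbp. Capitals mark matches to any of 7 motifs searched on both strands.
Muc2: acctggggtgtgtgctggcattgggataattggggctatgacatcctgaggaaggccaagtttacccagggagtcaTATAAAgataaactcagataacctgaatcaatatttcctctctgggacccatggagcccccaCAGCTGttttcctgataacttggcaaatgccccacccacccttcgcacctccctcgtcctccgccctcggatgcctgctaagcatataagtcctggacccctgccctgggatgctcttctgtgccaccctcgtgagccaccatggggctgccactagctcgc
Fcgbp: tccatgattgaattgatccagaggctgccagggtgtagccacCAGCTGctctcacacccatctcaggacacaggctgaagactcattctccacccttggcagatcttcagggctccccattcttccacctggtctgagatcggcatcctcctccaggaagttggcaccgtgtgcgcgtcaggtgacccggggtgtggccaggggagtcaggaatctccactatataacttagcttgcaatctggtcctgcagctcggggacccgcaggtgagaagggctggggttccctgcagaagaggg
Muc1: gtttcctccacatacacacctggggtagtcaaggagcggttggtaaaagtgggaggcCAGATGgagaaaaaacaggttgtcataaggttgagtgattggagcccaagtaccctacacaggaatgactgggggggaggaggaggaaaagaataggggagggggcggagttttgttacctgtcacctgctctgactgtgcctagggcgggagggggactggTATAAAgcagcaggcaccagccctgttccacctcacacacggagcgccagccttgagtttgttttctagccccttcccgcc
Muc4: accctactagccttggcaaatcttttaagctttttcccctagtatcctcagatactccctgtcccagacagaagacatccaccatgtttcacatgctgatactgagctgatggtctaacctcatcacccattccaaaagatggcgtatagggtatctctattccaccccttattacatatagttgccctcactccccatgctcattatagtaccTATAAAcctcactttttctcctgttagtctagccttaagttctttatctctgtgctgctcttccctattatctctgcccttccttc
The motifs were the E-boxes CAGCTG and CAGATG, a forkhead motif TGTTTAC, the TATA motif TATAAA, a STAT motif TTCNNNGAA, the motif TGACGT of cyclic AMP type, and the kappa-B motif by its name. The Muc2 and Fcgbp windows each held 1 CAGCTG, a motif found in 16.3% of 32851 such windows in the table. Muc1 held 1 CAGATG (17.2% of all windows). TATAAA stood 31 bases before the start site of Muc1, 36 bases before that of Muc4 and 174 bases before that of Muc2, and 13.6% of all windows held it. No match to the kappa-B motif (4.51% of all windows), the STAT motif (8.3%), the forkhead motif (3.65%) or TGACGT (7.51%) was found in these 4 windows, which says only that these letters are not there. RefSeq windows were found for 21 of the 35 members.

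The gel-forming mucin was examined first. Muc2 (ENSMUSG00000025515; GRCm39 chromosome 7, 141276583 to 141308430) had 6981, 3434 and 5685 CPM in PBS replicates 1 to 3 and 6281, 5738, 5928 and 5533 CPM in TNF replicates 1 to 4. All TNF values lay inside the range of the PBS values. Its log2 fold change was 0.13 ± 0.22 (SE, adjusted p = 0.637), with a 95% interval from -0.35 to 0.61, which is a TNF to PBS ratio between 0.785 and 1.52. Muc2 stands in a row of gel-forming mucin genes on chromosome 7, together with Muc6, Muc5ac and Muc5b, which mainly serve the stomach and the airways. These neighbours were near or at 0, with sums of 14 counts after PBS and 2 after TNF for Muc6, 0 and 3 for Muc5ac, and 0 in all libraries for Muc5b.

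In contrast, 4 genes whose products accompany MUC2 in the mucus layer fell. Fcgbp (ENSMUSG00000047730; chromosome 7, 27770661 to 27820287) encodes a large protein with von Willebrand factor type D domains that is found bound to the MUC2 gel. It had 4458, 2332 and 1885 CPM in the PBS libraries and 86.5, 54.2, 50.3 and 44.6 CPM in the TNF libraries. The groups were far apart, although PBS replicate 1 was also well above the other PBS libraries. The log2 fold change was -5.62 ± 0.36 (SE, adjusted p = 7.68e-07), a 49.1-fold fall. Clca1 (ENSMUSG00000028255; chromosome 3, 144709578 to 144738537) encodes a secreted metalloprotease that processes mucus. It had 136, 73.8 and 53.1 CPM after PBS and 15, 10.4, 13.2 and 9.62 CPM after TNF, without overlap, and a log2 fold change of -2.86 ± 0.32 (SE, adjusted p = 8.91e-05). Zg16 (ENSMUSG00000049350; chromosome 7, 126649302 to 126686500) encodes a lectin that binds Gram-positive bacteria. Its level was 82, 34 and 30.4 CPM after PBS and 3.86, 0.118, 3.53 and 0.327 CPM after TNF. All TNF libraries were below all PBS libraries, but they differed more than 10-fold among themselves, with replicates 2 and 4 near 0. The log2 fold change was -4.59 ± 0.89 (SE, adjusted p = 0.00584), and it was -3.99 without PBS replicate 1.

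Tff3 (ENSMUSG00000024029; chromosome 17, 31344280 to 31348620) is the trefoil peptide gene of intestinal GCs, and trefoil peptides aid the repair of the epithelial surface. It had 1014, 671 and 454 CPM after PBS and 131, 155, 166 and 195 CPM after TNF. No TNF library reached the lowest PBS library, and the log2 fold change was -2.14 ± 0.24 (SE, adjusted p = 2.44e-05). The related genes Tff2 and Tff1, which are typical of the stomach and lie next to Tff3 on chromosome 17 (31360023 to 31363262 and 31380369 to 31384251), were not tested. Tff2 was counted 50 times after PBS, 38 of them in PBS replicate 2, and 23 times after TNF. Tff1 had 0 counts in every library.

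Among the other secreted proteins, the protease inhibitor gene Spink4 and the antibacterial resistin-like gene Retnlb did not pass the test. Spink4 had 6570.1, 3889 and 2822 CPM after PBS and 2252, 3559.7, 3085 and 4057 CPM after TNF, with overlapping groups and a log2 fold change of -0.45 ± 0.27 (SE, adjusted p = 0.172). It was called lower without PBS replicate 3 (-0.70, adjusted p = 0.0254) and with scaling by total counts only (-0.59, 0.0118), and its log2 fold change was -0.05 without PBS replicate 1. Retnlb had 42, 43.4 and 34 CPM after PBS and 46, 30.5, 30.2 and 17.7 CPM after TNF, with a log2 fold change of -0.35 ± 0.26 (SE, adjusted p = 0.262). TNF replicate 1 was the highest of all libraries, and without it Retnlb was called lower (-0.60, adjusted p = 0.0126), as it was without the filter on low counts (-0.35, 0.0452). Both serine protease genes of the list fell. Klk1, which encodes tissue kallikrein, had 266, 209.8 and 118 CPM after PBS and 62.3, 40.2, 50.2 and 51.4 CPM after TNF, and a log2 fold change of -1.96 ± 0.25 (SE, adjusted p = 0.000103). Tpsg1, a tryptase gene, had 40.5, 29.9 and 23.9 CPM after PBS and 6.83, 9.78, 8.09 and 6.35 CPM after TNF, and a log2 fold change of -2.01 ± 0.20 (SE, adjusted p = 1.19e-06). Neither of these 2 genes overlapped between groups.

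Because Muc2 was measured in the same libraries, the other mucus genes can be set against it without any scaling between libraries. Per 1000 Muc2 counts of the same library, Fcgbp had 639, 679 and 332 counts in the PBS libraries and 13.8, 9.44, 8.49 and 8.05 counts in the TNF libraries. The loss of Fcgbp counts relative to Muc2 was thus present in each TNF library. Tff3 had 79.9 to 196 counts per 1000 Muc2 counts after PBS and 20.8 to 35.3 after TNF, and Clca1 had 9.34 to 21.5 and 1.74 to 2.39. Muc4 moved the other way, with 4.12 to 6.23 counts after PBS and 20 to 27.2 after TNF. For Muc13, Spink4 and Agr2 the groups overlapped in this ratio. All members together held 1.71% to 2.49% of the counts of a PBS library and 1.27% to 1.44% of those of a TNF library. Of these member counts, Fcgbp took 14.4% ± 2.25 in the PBS group (SD, n = 3) and 0.417% ± 0.159 in the TNF group (SD, n = 4), and Muc2 took 28% ± 7.79 and 41.1% ± 4.6. These shares are not corrected for gene length and compare the groups for 1 gene at a time, not the genes with each other.

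**Figure D2:**
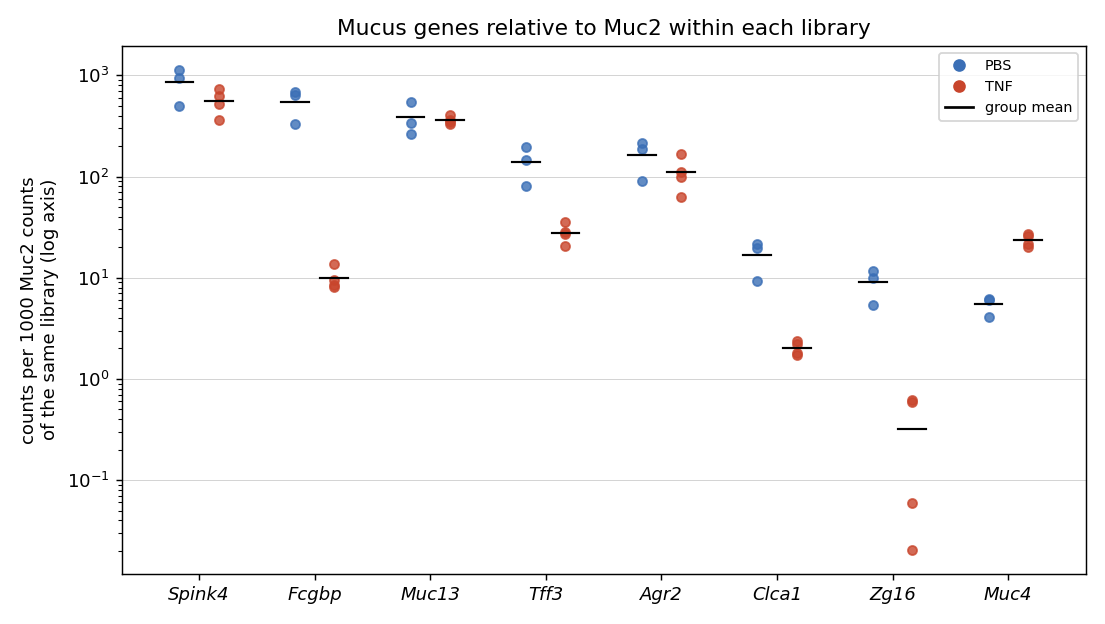
Counts of 8 members per 1000 Muc2 counts of the same library, on a log axis, with 3 PBS libraries in blue, 4 TNF libraries in red and the group mean as a black line. Fcgbp had 332 to 679 counts per 1000 Muc2 counts after PBS and 8.05 to 13.8 after TNF, Muc4 had 4.12 to 6.23 and 20 to 27.2, and the groups of Spink4, Muc13 and Agr2 overlap.

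Of the 3 transmembrane mucins, which shield the apical surface and can signal through their cytoplasmic tails, 2 rose, where 29.5% of all tested genes did, and 1 did not pass the test. Muc1 (ENSMUSG00000042784; chromosome 3, 89136354 to 89140688) had 0.618, 0.204 and 0.212 CPM after PBS, 18 counts in all, and 9.01, 10.1, 7.5 and 13.7 CPM after TNF, 682 counts in all. It was close to absent in each PBS library and present in each TNF library. The log2 fold change was 4.89 ± 0.41 (SE, adjusted p = 2.3e-07), and it was 5.55 without PBS replicate 1. Muc4 (ENSMUSG00000118672; chromosome 16, 32555015 to 32602754) had 28.7, 21.4 and 34.1 CPM after PBS and 126, 123, 161 and 144 CPM after TNF. The lowest TNF library was above 3 times the highest PBS library, and the log2 fold change was 2.30 ± 0.16 (SE, adjusted p = 6.09e-08). Muc13 (ENSMUSG00000022824; chromosome 16, 33614407 to 33640304), the highest of the 3 membrane mucins per kb of exon in both groups, had 2364, 1889 and 1509 CPM after PBS and 2064, 2064, 2040.3 and 2228 CPM after TNF. The PBS values spanned all TNF values, and no change was detected (log2 fold change 0.13 ± 0.16, SE, adjusted p = 0.52, 95% interval -0.22 to 0.48).

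Guca2a and Guca2b encode guanylin and uroguanylin, peptides that bind guanylate cyclase C on epithelial cells and promote the secretion of chloride and water. Guca2a had 316, 180.0 and 134 CPM after PBS and 59.1, 81.3, 85.6 and 101 CPM after TNF, and Guca2b had 505, 369.6 and 281 CPM and 121, 139.7, 158 and 155 CPM. Neither gene overlapped between groups, and their log2 fold changes were nearly alike, at -1.36 ± 0.29 (SE, adjusted p = 0.00403) and -1.43 ± 0.17 (SE, adjusted p = 1.25e-05). They are neighbours on chromosome 4 (119494890 to 119496668 and 119513802 to 119516151). Of the exon bases of Guca2b, 50.3% overlap a gene on the other strand, so its counts depend on the use of strand in counting, which the notes do not state. The same limit holds for smaller parts of other members, among them Bcas1 (17.1%), Muc13 (10%), Creb3l4 (10%), Tpsg1 (8.82%) and Muc4 (3.67%). The gene of the receptor of guanylin and uroguanylin, Gucy2c, which belongs to the list of other mucus pathway genes, was higher after TNF. It had 313, 306 and 271 CPM after PBS and 448, 476, 445 and 486 CPM after TNF and a log2 fold change of 0.64 ± 0.11 (SE, adjusted p = 0.000139).

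**Figure D3:**
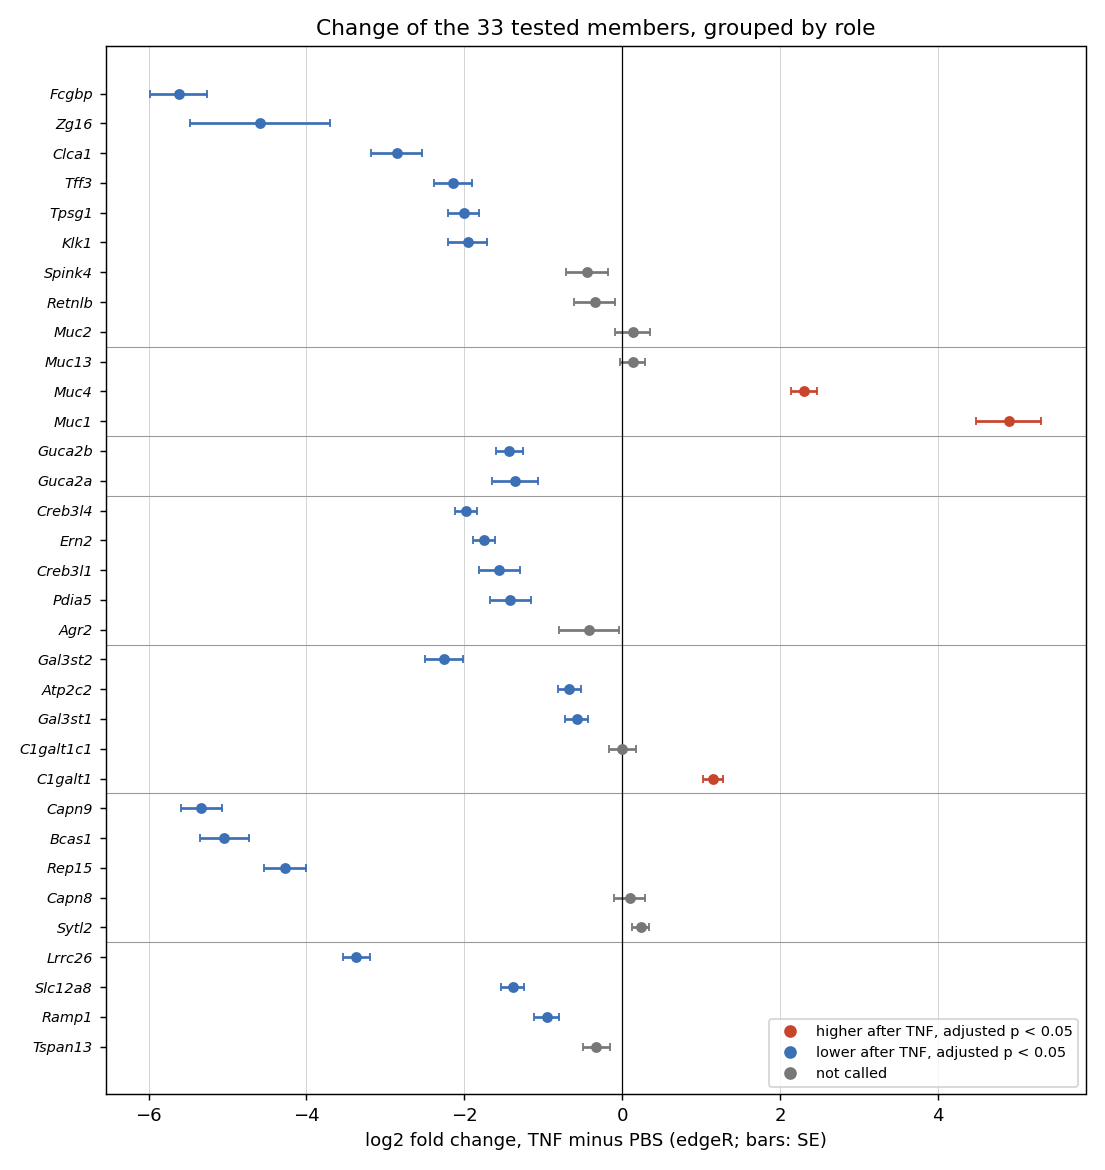
Log2 fold change (TNF minus PBS, edgeR) of the 33 tested members with its SE as a bar, grouped by role between the lines, in red where higher and in blue where lower at an adjusted p under 0.05, and in grey where not called. The 21 blue points are found in each group but the transmembrane mucins, and the 3 red points are Muc1, Muc4 and C1galt1.

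Of the genes for folding and ER sensing, 4 of 5 fell, where 30.1% of all tested genes did. Agr2, whose product is the protein disulfide isomerase that MUC2 needs for its folding, was the exception. It had 1314, 742 and 516 CPM after PBS and 397, 968, 582 and 619 CPM after TNF, with a wide spread in both groups and a log2 fold change of -0.42 ± 0.38 (SE, adjusted p = 0.374, 95% interval -1.30 to 0.46). Pdia5, another disulfide isomerase gene, had 98.2, 66.6 and 50 CPM after PBS and 16.5, 29.4, 30.5 and 30.4 CPM after TNF and a log2 fold change of -1.42 ± 0.26 (SE, adjusted p = 0.00104). Ern2, which encodes IRE1 beta, the ER stress sensor of mucosal epithelia, had 275, 241 and 256 CPM after PBS and 78.9, 96, 67 and 63.4 CPM after TNF. The PBS values were close together, the groups did not overlap, and the log2 fold change was -1.75 ± 0.14 (SE, adjusted p = 1.15e-07). Creb3l1 and Creb3l4 encode membrane-bound transcription factors that are released by proteolysis and drive secretory genes. Creb3l1 had 152, 119.6 and 74.6 CPM after PBS and 26.5, 47.7, 46 and 36.5 CPM after TNF (log2 fold change -1.56 ± 0.26, SE, adjusted p = 0.000665). For Creb3l4, the values were 141, 103 and 96 CPM after PBS and 27.3, 32.2, 29 and 26 CPM after TNF (log2 fold change -1.98 ± 0.14, SE, adjusted p = 3.94e-08). In both cases the highest TNF library was below the lowest PBS library.

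The glycan genes moved in both directions. C1galt1 (ENSMUSG00000042460; chromosome 6, 7844634 to 7875687) encodes the enzyme that extends the first sugar of mucin O-glycans to the core 1 structure. It had 339, 265 and 259 CPM after PBS and 625, 623, 598 and 706 CPM after TNF, without overlap, and a log2 fold change of 1.15 ± 0.13 (SE, adjusted p = 3.85e-06). The gene of its obligate chaperone COSMC, C1galt1c1, had 174, 122 and 105 CPM after PBS and 110.0, 142, 123 and 159 CPM after TNF. These ranges overlapped and no change was detected (adjusted p = 0.986, 95% interval of the log2 fold change -0.37 to 0.36). The difference between the changes of these partners was not tested.

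Both sulfotransferase genes of the list, whose products add sulfate to galactose, fell. Gal3st2 had 13.6, 13.8 and 11.1 CPM after PBS and 2.35, 3.18, 1.87 and 3.34 CPM after TNF (log2 fold change -2.26 ± 0.24, SE, adjusted p = 2.28e-06), and Gal3st1 had 17.4, 18.8 and 14.8 CPM and 12.1, 9.96, 11.8 and 11.7 CPM (-0.58 ± 0.15, SE, adjusted p = 0.00523). Of the transcript windows of 75 bases of Gal3st2, 65.6% also occur in another gene, so its counts are uncertain. Its annotated copies Gal3st2b and Gal3st2c were likewise lower after TNF, with group sums of 860 and 806 counts after PBS and 488 and 58 after TNF. Atp2c2, which encodes a calcium and manganese pump of the Golgi, had 46.4, 36.8 and 32.5 CPM after PBS and 20.5, 25.9, 25.3 and 24.9 CPM after TNF. This was a modest fall without overlap (log2 fold change -0.67 ± 0.14, SE, adjusted p = 0.000897).

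The calpains of the gastrointestinal tract, intracellular proteases that depend on calcium, parted. Capn9 (ENSMUSG00000031981; chromosome 8, 125296350 to 125345472) had 21.1, 19 and 16.8 CPM after PBS and 0.392, 0.295, 0.643 and 0.524 CPM after TNF. It was nearly absent from all TNF libraries, with 32 counts over the group, and had a log2 fold change of -5.33 ± 0.26 (SE, adjusted p = 1.53e-09). Capn8 had 31.5, 22.5 and 41.2 CPM after PBS and 31.2, 34.7, 26.6 and 43 CPM after TNF and did not detectably change (log2 fold change 0.09 ± 0.20, SE, adjusted p = 0.71, 95% interval -0.35 to 0.53). Among the vesicle genes, Rep15, which encodes an effector of the trafficking GTPase RAB15, had 69.2, 53.3 and 42.3 CPM after PBS and 3.81, 2.12, 3.69 and 1.57 CPM after TNF. The fall was seen in each library, with a log2 fold change of -4.27 ± 0.27 (SE, adjusted p = 8.78e-08). Sytl2, an effector gene of RAB27 in granule docking, had 347, 309 and 342 CPM after PBS and 359, 367, 415 and 418 CPM after TNF. All TNF libraries were above all PBS libraries, yet the change was small and did not pass the test (log2 fold change 0.23 ± 0.11, SE, adjusted p = 0.0836). Bcas1 (ENSMUSG00000013523; chromosome 2, 170188911 to 170269765), a GC marker whose function there is not settled, had 57.7, 44.5 and 39.3 CPM after PBS and 1.79, 0.884, 2.3 and 0.589 CPM after TNF (log2 fold change -5.04 ± 0.31, SE, adjusted p = 7.4e-08).

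Of the remaining membrane proteins, Lrrc26, an auxiliary subunit of the large-conductance potassium channel, fell most. Its level was 103, 77.6 and 64.2 CPM after PBS and 9.12, 6.9, 8.3 and 7.07 CPM after TNF, with a log2 fold change of -3.37 ± 0.17 (SE, adjusted p = 2.39e-09). Slc12a8, a member of the cation and chloride cotransporter family, had 315, 233 and 205 CPM after PBS and 81.5, 111, 102 and 89.5 CPM after TNF (-1.39 ± 0.15, SE, adjusted p = 3.47e-06). Ramp1, whose product forms the receptor for calcitonin gene-related peptide together with a partner, had 146, 101 and 106 CPM after PBS and 56.9, 59.4, 49.5 and 77.4 CPM after TNF (-0.96 ± 0.16, SE, adjusted p = 0.0002). For these 3 genes the groups did not overlap. Tspan13, a tetraspanin gene, had 336, 261 and 203 CPM after PBS and 173, 217, 199.6 and 262 CPM after TNF, with overlap and a log2 fold change of -0.33 ± 0.17 (SE, adjusted p = 0.118). It was called lower without PBS replicate 3 (-0.49, adjusted p = 0.0153), without TNF replicate 4 (-0.45, 0.0316), with scaling by total counts only (-0.48, 0.00228) and without the filter on low counts (-0.33, 0.022).

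To order the levels of different genes, CPM were divided by the kilobases of annotated exon. On this scale of CPM per kb, Spink4 was first after PBS (6218) and after TNF (4548). After PBS it was followed by Tff3 (1382), Agr2 (638), Muc13 (632), Guca2b (442), Muc2 (386), Guca2a (347) and Fcgbp (275). After TNF the order was Spink4, Muc13 (691), Agr2 (477), Muc2 (422) and Tff3 (314), and Fcgbp stood at 5.61, rank 24 of 35. Among these first 8 genes after PBS, the library values of Spink4 lay above all those of Tff3, and every later pair of neighbours overlapped. After TNF, the library values of Muc13 and Agr2 overlapped, as did those of Agr2 and Muc2, so that these neighbours are not ordered beyond their spread. Muc1 moved from rank 34 to rank 26, and Muc4 from rank 31 to rank 19, with 4.28 and 10.9 CPM per kb after TNF. The exon length is the union over all annotated transcripts and can exceed that of the transcript in use.

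PBS replicate 1 was the highest of the PBS libraries for 28 of the 33 tested members, and it was so for 36.9% of all tested genes. Its summed member level was 26801 CPM, beside 15539 and 16029 CPM in the other PBS libraries and 13296 to 15137 CPM in the TNF libraries. Without this library the same 21 members were lower and the same 3 higher, with a median log2 fold change of -1.13. Leaving out any other library also kept these 24 calls.

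Markers of tuft, stem, enteroendocrine and absorptive cells were lower in part or in full after TNF, where 30.1% of all tested genes were lower and 29.5% higher. For 6 tuft cell markers the summed level was 1517 to 2525 CPM after PBS and 304 to 765 CPM after TNF, and all 6 were lower. For 4 stem cell markers it was 2407 to 3533 and 958 to 1589 CPM (4 lower), for 8 enterocyte markers 162 to 259 and 14.7 to 20.2 CPM (5 of 6 tested lower), and for 6 enteroendocrine markers 45.3 to 112 and 18.1 to 31.8 CPM (3 lower). Markers of leukocytes summed to 24.1 to 31.9 CPM after PBS and 12.4 to 25 CPM after TNF, with Cd3e at 0, and the groups overlapped (1 of 3 tested lower, a share near that of all tested genes). Stromal and endothelial markers reached at most 0.448 CPM in a library, with Kdr at 0, and erythroid markers at most 0.053 CPM, with Hba-a1 and Hbb-bs at 0. PC markers summed to 164787 to 264673 CPM after PBS and 159252 to 285516 CPM after TNF (2 of 8 higher and 2 lower). Nupr1 and Mmp7 were higher, with log2 fold changes of 2.49 and 0.88, and Clps and Habp2 were lower, with -2.27 and -1.26. Genes that mark the position along the intestine moved as well, from 178 to 216 down to 33.5 to 45.7 CPM for 8 duodenal and jejunal genes (5 of 6 tested lower, Onecut1 at 0) and from 27.6 to 45.3 up to 68.7 to 75.8 CPM for 10 ileal genes (3 of 4 tested higher, 1 lower). The rise of the ileal sum came mainly from Hoxb9, with means of 9.59 CPM after PBS and 44.6 CPM after TNF, and Hoxb8, with 4.26 and 13.9 CPM. Slc51b was also called higher, with means of 0.404 CPM after PBS and 4.01 CPM after TNF, and Osr2 was the ileal gene called lower. Of the untested ileal genes, Fabp6, Slc51a, Cubn and Hoxa10 had fewer counts after TNF. Their group sums went from 39 to 2, from 27 to 0, from 136 to 0 and from 7 to 0, with most of the PBS counts in PBS replicate 2. The untested Slc10a2 and Fgf15 went the other way, with group sums from 0 to 34 and from 2 to 5. The part of these markers in the members' changes was not tested.

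Other genes of the mucus pathway were taken whole from lists by role. Of 67 listed symbols, 66 were found, under 67 identifiers, because Muc3 had no match and St6galnac2 had 2 identifiers. Of these, 56 were tested, 25 were lower (44.6%, beside 30.1% of all tested genes) and 18 higher (32.1%, beside 29.5%), with a median log2 fold change of -0.25. The share of higher genes was thus near that of all tested genes, and the counts of the single lists below are to be read against 59.6% of all tested genes called in either direction. All 9 regulators of the secretory and goblet lineages changed, 5 lower and 4 higher. Atoh1 (ENSMUSG00000073043), the factor that commits progenitors to the secretory lineage, had 212, 189 and 142 CPM after PBS and 47.1, 38.8, 62.6 and 64.6 CPM after TNF (log2 fold change -1.77 ± 0.18, SE, adjusted p = 5.9e-06). Gfi1, which acts after it, had 31.3, 24.3 and 19.7 CPM and 6.38, 10.7, 8.62 and 10.3 CPM (-1.48 ± 0.20, SE, adjusted p = 2.33e-05). Spdef, a factor that drives the maturation of GCs and PCs, went the other way, with 149.9, 124 and 121 CPM after PBS and 273, 490.1, 275 and 386 CPM after TNF (1.44 ± 0.20, SE, adjusted p = 6.24e-05). The forkhead genes were split as well. Foxa2 had 29.2, 27.5 and 28.8 CPM after PBS and 4.48, 2.3, 3.91 and 3.08 CPM after TNF (-3.04 ± 0.20, SE, adjusted p = 2.4e-08), and Foxa3 was also lower (-1.50 ± 0.13, SE, adjusted p = 2.63e-07), whereas Foxa1 was higher (1.45 ± 0.13, SE, adjusted p = 3.75e-07).

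Of the other mucins only Muc3a and Muc17 were tested. Muc17 (ENSMUSG00000037390; chromosome 5, 137163770 to 137202830), a membrane mucin of the brush border, had 6.74, 10.4 and 14.6 CPM after PBS and 121, 45.7, 104 and 77 CPM after TNF. Each TNF library was above 3 times the highest PBS library, and the log2 fold change was 3.03 ± 0.41 (SE, adjusted p = 0.000395). It adjoins Muc12 and Muc3a on chromosome 5. Muc12 had 24 and 13 counts over the PBS and TNF libraries, and Muc3a had 78.1, 49.5 and 78.6 CPM after PBS and 76.6, 72.6, 60.7 and 59.6 CPM after TNF, with no detectable change (adjusted p = 0.888). Together with Muc1 and Muc4, 3 membrane mucin genes were thus higher after TNF, and Muc13 and Muc3a did not pass the test.

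Among other secreted or extracellular proteins of the mucus layer, 3 were higher and 5 lower of 9 tested. The transglutaminase gene Tgm2, whose product crosslinks proteins, had 135, 123 and 132 CPM after PBS and 474, 767, 696 and 799 CPM after TNF (2.40 ± 0.17, SE, adjusted p = 6.2e-08). Agr3, the paralogue of Agr2 and chosen after its values were seen, was counted 135 times after PBS and 0 times after TNF, and was at least 56.6-fold lower against a floor of 3 counts over the TNF group. Of 23 identifiers for O-glycan building and sulfation, 22 were tested, of which 10 were lower and 5 higher. Galnt10, which encodes an enzyme that starts O-glycans, had 280.1, 229.5 and 205 CPM after PBS and 38.3, 45.4, 39.5 and 42.8 CPM after TNF (-2.52 ± 0.12, SE, adjusted p = 1.41e-09). Its relatives did not move together, with log2 fold changes of -1.43 ± 0.15 for Galnt7 and -1.59 ± 0.15 for Galnt5 (SE, edgeR adjusted p = 2.27e-06 and 8.13e-07), and of 1.13 ± 0.14 for Galnt6 (SE, adjusted p = 1.02e-05).

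For mucus release, cleavage and hydration, 5 genes were lower and 3 higher of 11 tested. Nlrp6, an innate sensor that takes part in the release of GC granules, had 62.2, 97.1 and 119 CPM after PBS and 7.22, 3.89, 6.91 and 4.12 CPM after TNF (-4.05 ± 0.27, SE, adjusted p = 8.36e-07). Cftr, the gene of the chloride and bicarbonate channel that hydrates mucus, was lower, with 80.2, 92.4 and 133 CPM after PBS and 42, 31.4, 38.5 and 33.2 CPM after TNF (-1.49 ± 0.16, SE, adjusted p = 5.08e-06), while the calcium-activated chloride channel gene Ano1 was higher at a low level, with 2.47, 3.36 and 1.43 CPM and 13.8, 10.4, 12.7 and 9.23 CPM (2.25 ± 0.29, SE, adjusted p = 1.27e-05). Slc26a3, which encodes a chloride and bicarbonate exchanger, fell at a very low level, from 165 counts summed over the PBS libraries to 10 counts after TNF (-4.29 ± 0.69, SE, adjusted p = 0.000114). Vamp8, which encodes a fusion protein of secretory granules, had 62.7, 58.4 and 48.5 CPM after PBS and 106, 126, 115 and 156 CPM after TNF (1.15 ± 0.14, SE, adjusted p = 8.68e-06). Of 3 cytokine receptor genes, Il4ra (1.64 ± 0.12, SE, adjusted p = 9.04e-08) and Il22ra1 (0.58 ± 0.13, SE, adjusted p = 0.00163) were higher and Il13ra1 was not called (adjusted p = 0.195). Foxa1, Foxa3, Galnt5, Galnt6, Galnt7, Cftr, Slc26a3, Vamp8 and Gucy2c were picked for mention after their values were seen.

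**Figure D4:**
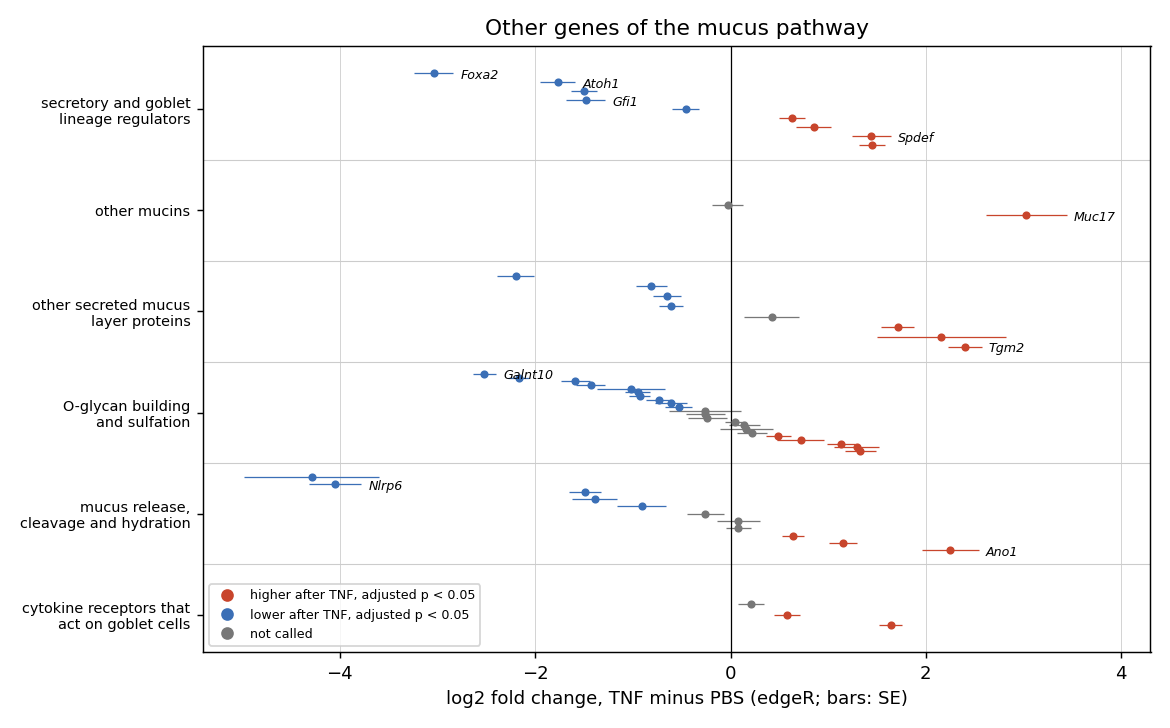
Log2 fold change (TNF minus PBS, edgeR) of 55 tested identifiers of the other mucus pathway lists with its SE as a bar, coloured as in the plot of the members. Agr3, which had 0 counts after TNF, is not drawn. Blue and red points occur side by side among the regulators, the secreted proteins, the O-glycan genes and the release genes, with Nlrp6 at -4.05 and Muc17 at 3.03.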

How the data were processed

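Gene counts of 7 libraries of sorted PCs (3 PBS, 4 TNF, grouped by the labels) were deposited by the authors as 1 table of raw counts, with no normalization. The submitters' processing notes name FastQC, Trimmomatic 0.39, STAR 2.7.10a, DESeq2 and the builds mm10 and mm39; no source used here gives the counting tool, the annotation or whether strand was used. Symbols and coordinates came from GENCODE M39 (GRCm39) by identifier, with 98.8% matched, and promoter windows from RefSeq (GRCm38.p6), a different build. Genes were filtered with filterByExpr, scaled by TMM and tested with the robust quasi-likelihood test of edgeR 4.0.16 (R 4.3.3, limma 3.58.1) in all 7 libraries, with Benjamini-Hochberg adjustment over 14329 genes. SEs were derived from the fold change and F statistic. The procedure was tested on simulated data. Counts in any pair of libraries of a group differed by at least 17 times the sampling noise (chi-square per degree of freedom), so none was a copy. Alternatives were 14 settings, including DESeq2 1.42.0 and leaving out each library. All members with a mean of at least 10 CPM in either group were described, which took in all 33 tested members; of the pathway genes that reached the same 10 CPM, the 3 called genes with the largest rises and the 3 with the largest falls were named by rule, with Atoh1, Spdef and Gfi1. The members and lists were chosen with earlier results of these data known.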

Additional observations from a re-analysis of the deposited data

Results flagged for a closer look

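For 43 sets of TNF library values, the library farthest from the rest was compared with the range of its group by Dixon's criterion, which chance meets in about 1 in 20 groups, and 2 sets met it. Muc13 had 2228 CPM in TNF replicate 4, beside 2040.3 to 2064 CPM in the other TNF libraries, a gap that is small against the spread of the PBS libraries. Pdia5 had 16.5 CPM in TNF replicate 1, beside 29.4 to 30.5 CPM in the other TNF libraries. Without TNF replicate 1, Pdia5 was still lower after TNF, by -1.25 ± 0.21 (SE) on the log2 scale (adjusted p = 0.000367 in edgeR).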

How the results depend on the processing

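Under all 14 alternatives the same 21 members stayed lower and the same 3 higher. Counts were 21 to 23 members lower and 3 higher, and 23 to 27 pathway genes lower and 17 to 20 higher; leaving out 1 library each gave 21 to 23 and 3 members, and 23 to 27 and 17 to 20 pathway genes. Among the values of single genes under the alternatives, 580 kept their side of the threshold and 8 passed it only there, for Spink4, Retnlb and Tspan13. Without PBS replicate 1 the log2 fold change of Muc1 moved from 4.89 to 5.55 and that of Zg16 from -4.59 to -3.99. Scaling by total counts moved the median of all genes by -0.16 and that of the members to -1.53, and 40.5% of all calls were then higher, beside 49.5% with TMM. Replicate numbers are shared by the groups, but same-numbered libraries did not deviate together (correlations -0.299, -0.0314 and -0.174); with the number as a replicate block, 3 members were higher and 21 lower, 18 pathway genes higher and 24 lower, and 3553 of all genes higher and 3578 lower instead of 4229 and 4314. The fitted direction of the uncalled Muc2, Muc13, Agr2, Capn8 and C1galt1c1 changed under 1 to 4 alternatives. Muc1, Zg16, Bcas1, Capn9, Slc26a3 and Agr3 rest on few counts in 1 group, which limits the precision of their folds.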
